A study of Oryctolagus cuniculus with 16 samples.

Results

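Genes of macrophage lipid uptake and storage were followed through the first week of vein grafting in rabbits. The list held 4 genes, APOE, MSR1, SCARB1 and SOAT1, and its members were all array probes whose transcript accession belongs to one of these genes in RefSeq. This gave 8 of the 43603 probes of the array: 1 probe of APOE (NM_001082643), 2 probes of MSR1 (NM_001082248) and 5 probes of SCARB1 (NM_001082788). No probe carried an accession of SOAT1, so that gene was dropped, and with it the only enzyme of lipid storage on the list. All 8 probes passed the filter on dim probes and none was saturated.

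The material was vein tissue of male rabbits (Oryctolagus cuniculus), and total RNA was labelled with Cy3 and hybridized to Agilent one-colour rabbit arrays. The groups were grafts taken out on day 1 after surgery (6 arrays), grafts taken out on day 7 (6 arrays), and veins from sham surgery (4 arrays), which the labels also call vein grafts. The labels give no strain, age or animal for an array. The 6 arrays of each graft group fell into sets of 3 whose arrays differed by less than the spots of one probe do on a single array, so that each graft group counted as 2 samples (day 1, n = 2; day 7, n = 2; sham, n = 4). The 4 sham arrays were each counted as a sample, although they fell into 2 pairs far more alike within than between. The p-values below therefore measure only the spread between these samples, which may be technical. The sham arrays were scanned apart from all graft arrays, so scan and surgery cannot be told apart in a comparison with sham. Day 1 and day 7 arrays shared their 3 scans, and each scan held 1 array of every graft sample. In each scan day 1 arrays had array positions 1 and 2 and day 7 arrays positions 3 and 4. Array position therefore cannot be told apart from day, nor from sample within a graft group.

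Macrophages take up modified lipoproteins through scavenger receptors and turn into foam cells when the cholesterol is stored as ester droplets. MSR1, the class A scavenger receptor also known as SR-A, is such an uptake receptor and is characteristic of macrophages. SCARB1, also known as SR-BI, binds HDL and moves cholesteryl esters and free cholesterol across the membrane in many cell types, among them adipocytes and endothelial cells. APOE is a lipoprotein ligand of the LDL receptor family, and macrophages secrete it as an acceptor of exported cholesterol. SOAT1 esterifies cholesterol for storage. In whole vein tissue, fewer cells of a type and less RNA per cell cannot be told apart.

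The 3 genes followed 3 courses. MSR1 was far higher in the grafts at both times, SCARB1 was lower at both times, and APOE fell out of the measurable range on day 1 and was back near the sham level on day 7. On day 1 all 8 probes were called against sham, 2 higher and 6 lower. APOE passed the filter only through sham and day 7. Its calls in comparisons with day 1 rest on signals that no day 1 array measured well above background. A probe was called where its adjusted p-value was below 0.05 and its log2 fold change was 1 or more in either direction, in the limma model over 35760 probes. Of all these probes 49.8% were called in that comparison (25.2% higher, 24.6% lower), so being called on day 1 sets no probe apart. On day 7 against sham 7 of the 8 probes were called, 2 higher and 5 lower, where 32.9% of all probes were (17.5% higher, 15.4% lower). Day 7 against day 1 called 2 of the 8 probes, both higher, where 39.9% of all probes were called (21.1% higher).

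**Figure D1:**
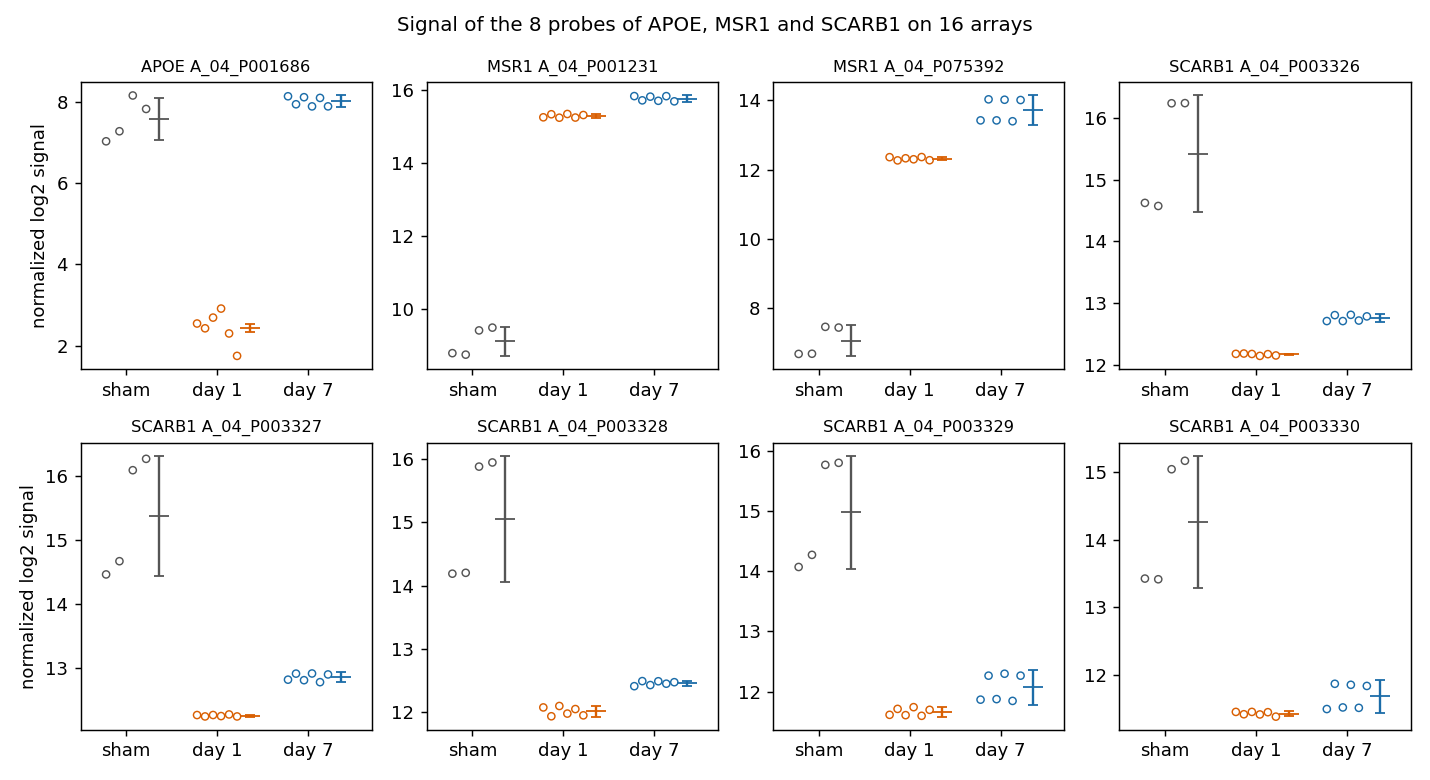
Normalized log2 signal (vertical axis) of each of the 8 probes on the 16 arrays, by group. Open circles are arrays, and the bar beside them is the mean ± SD over the samples of that group (sham n = 4, day 1 n = 2, day 7 n = 2). MSR1 sits above sham at both times, SCARB1 sits below sham at both times, and APOE is low on day 1 alone.

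MSR1 was the only member gene called higher than sham. On the quantile-normalized log2 scale, its brighter probe A_04_P001231 read 8.80, 8.76, 9.42 and 9.50 in the sham samples. It read 15.25 and 15.33 in the day 1 samples and 15.83 and 15.70 in the day 7 samples. Every graft sample lay far above every sham sample, and both day 7 samples lay above both day 1 samples. Of all probes, 43.5% lay above sham without overlap on day 1 and 37.9% on day 7. Day 7 lay above day 1 without overlap in 43.9% of all probes. The log2 fold change against sham was 6.17 (SE 0.24, limma adjusted p = 9.28e-07) on day 1 and 6.65 (SE 0.24, limma adjusted p = 1.42e-06) on day 7, the latter a signal 100.3-fold that of sham. On day 7, 0.372% of all probes had a larger absolute log2 fold change than this probe, and on day 1 0.912% had.

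The other MSR1 probe, A_04_P075392, moved the same way. Its sham samples read 6.68, 6.69, 7.46 and 7.44, its day 1 samples 12.35 and 12.28, and its day 7 samples 13.41 and 14.01. The 3 groups did not overlap, where 43.9% of all probes had day 7 above day 1 without overlap. The day 7 samples were 0.60 apart, against 0.07 between the day 1 samples. Its log2 fold change against sham was 5.24 (SE 0.30, limma adjusted p = 4.82e-06) on day 1 and 6.64 (SE 0.30, limma adjusted p = 3.46e-06) on day 7.

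The MSR1 probes differed in the step from day 1 to day 7. Probe A_04_P075392 rose by 1.40 on the log2 scale (95% confidence interval 0.58 to 2.22, limma adjusted p = 0.0102). This call was lost without the second day 7 sample (1.1, limma adjusted p = 0.0679) and without the second day 1 sample (1.36, limma adjusted p = 0.0502). Probe A_04_P001231 was not called, with a difference of 0.48 (95% confidence interval -0.18 to 1.13, limma adjusted p = 0.173). Fitted without the sham samples, whose spread enters that interval, the difference had an SE of 0.09 and a limma adjusted p = 0.00687 and was still under the fold threshold. With each array scaled to its 75th percentile instead of quantile normalization, this probe was called too (1.21, limma adjusted p = 0.00599). Within the 3 scans its difference ranged from 0.47 to 0.48, but the scans held the same joined samples and are no independent repeats.

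SCARB1 was lower in the grafts by all 5 probes. Its brightest probe, A_04_P003327, read 14.46, 14.67, 16.08 and 16.26 in the sham samples. It read 12.27 and 12.25 in the day 1 samples and 12.80 and 12.91 in the day 7 samples. All graft samples lay below all sham samples, an order that 38.7% of all probes showed on day 1 and 34.1% on day 7, while the sham samples themselves were split into a lower and a higher pair. The log2 fold change against sham was -3.11 (SE 0.54, limma adjusted p = 0.00142) on day 1 and -2.51 (SE 0.54, limma adjusted p = 0.00564) on day 7.

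The other 4 SCARB1 probes gave nearly the same differences. Probes to one transcript share their target and are not replicates. Over all 5 probes the log2 fold changes ran from -3.32 to -2.83 on day 1 and from -2.91 to -2.51 on day 7. Group means of the dimmest, A_04_P003330, were 14.26 ± 0.97 (SD, n = 4) in sham, 11.43 ± 0.03 (SD, n = 2) on day 1 and 11.69 ± 0.24 (SD, n = 2) on day 7. Its day 7 call missed the threshold without the first day 7 sample (-2.40, limma adjusted p = 0.0507). In all 5 probes both day 7 samples read higher than both day 1 samples, an order that 43.9% of all probes showed. The differences were 0.25 to 0.60 on the log2 scale and none was called. For A_04_P003327 the difference was 0.60 (95% confidence interval -0.88 to 2.07, limma adjusted p = 0.431). Fitted without the sham samples, it had an SE of 0.08 and a limma adjusted p = 0.00236, and over the 5 probes the limma adjusted p ran from 0.00222 to 0.155 in that fit, with every difference under the fold threshold.

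Of the members, SCARB1 had the widest split among the sham samples. Sham samples 3 and 4 exceeded samples 1 and 2 by 1.61 to 1.72 on the log2 scale over its 5 probes, by 0.68 and 0.77 in MSR1 and by 0.84 in APOE. Over all probes 5.26% were more than 1 higher in samples 3 and 4 and 5.31% more than 1 lower. Of 10 adipocyte markers 4 were measured (ADIPOQ, LEP, LPL and PPARG). Against sham 2 of these were called lower on day 1 and 1 on day 7, where 25.6% and 16.6% of all named genes were. The mean level of the 4 markers, centred on the mean of each probe, was 0.04 and 0.11 in sham samples 1 and 2. It was 2.73 and 2.68 in samples 3 and 4. It was -1.44 to -1.34 in the graft samples, with ADIPOQ below background on day 1. Within sham the split was widest in LPL (10.03 and 10.13 against 16.92 and 16.88). ADIPOQ and PPARG were higher in samples 3 and 4 too, and LEP overlapped between the pairs (5.11 and 5.36 against 5.40 and 5.24). LEP, the hormone leptin, went the other way on day 1, 0.44 above sham (limma adjusted p = 0.00778) and under the fold threshold, and LPL was not called at either time. ADIPOQ, the adipocyte hormone adiponectin, was at least 53.3-fold lower on day 1 than in sham, a bound since no day 1 array measured it well above background. Its limma adjusted p = 1.25e-05 is for the signals as read and tests no measured day 1 level. The mean level of Schwann cell markers (3 of 7 measured) was also higher in sham samples 3 and 4 (2.74 and 2.71) than in samples 1 and 2 (1.51 and 1.59). PMP22, 1 of the 3, went the other way (13.44 and 13.42 against 14.06 and 14.25). Smooth muscle markers (4 of 11) were lower in samples 3 and 4 (1.01 and 1.03 against 2.08 and 2.13). The macrophage markers CD14 and MMP12 were higher there (-2.37 and -2.36 against -3.92 and -3.97). The mean of the 6 neutrophil markers was higher there too (-1.42 and -1.39 against -2.03 and -1.95). Of these, CAMP was lower there (6.85 and 6.70 against 6.96 and 6.99), and CXCR1 and CXCR2 overlapped between the pairs. The part of these cell types in the SCARB1 result was not tested. Against sham samples 1 and 2 alone, the SCARB1 difference of A_04_P003327 was -2.30 on day 1 and -1.71 on day 7. Against sham samples 3 and 4 alone it was -3.91 and -3.31. These 2 pairs were set apart after the data were seen, so the values carry no test.

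**Figure D2:**
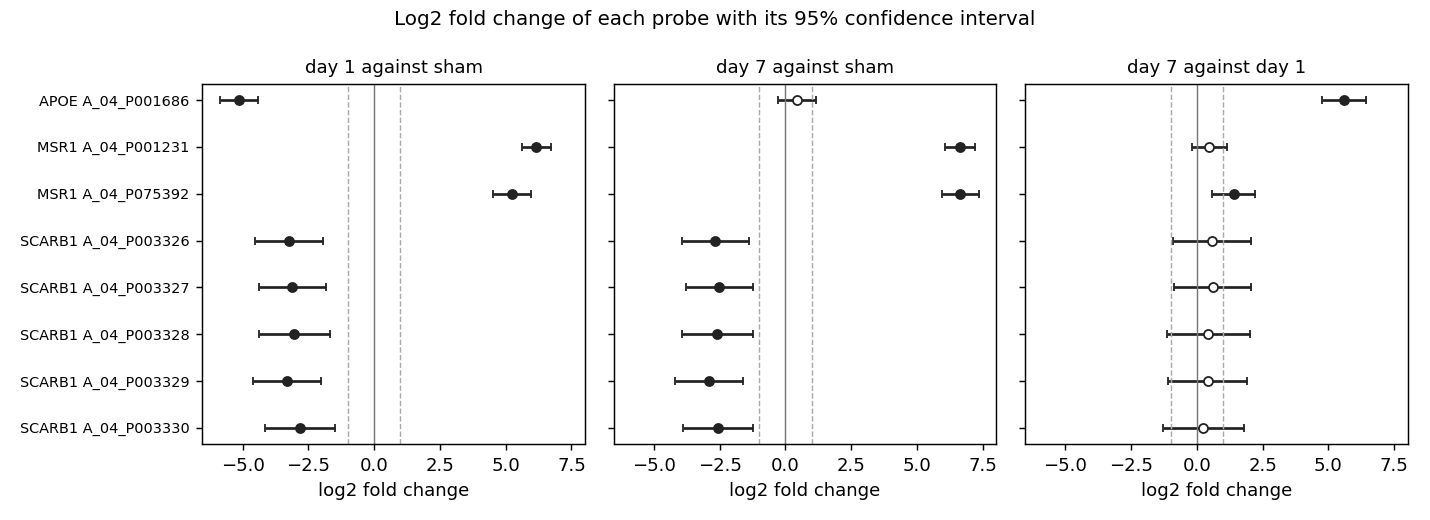
Log2 fold change (horizontal axis) of each probe in the 3 comparisons, with 95% confidence intervals from the limma model. Filled points were called, open points were not, and the dashed lines mark a log2 fold change of 1 in either direction. The MSR1 and SCARB1 intervals against sham stay clear of 0, and the day 1 values of APOE come from arrays on which it was not well above background.

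APOE was the only member that left the measurable range. On the log2 scale it read 7.04, 7.28, 8.16 and 7.83 in the sham samples and 8.12 and 7.91 in the day 7 samples. Its day 1 samples read 2.51 and 2.36, and none of the 6 day 1 arrays measured it well above background, while all 6 day 7 arrays and all 4 sham arrays did. The day 1 samples lay below all others, and the day 7 samples lay within the sham range. In scanner units the median was 5.83 on day 1, 187.8 in sham and 388.9 on day 7, before the arrays were normalized.

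Since APOE has only an upper bound on day 1, its change is given as a lower bound, with the dimmest signal that counts as well above background on each day 1 array in place of its own. APOE was at least 15.5-fold lower on day 1 than in sham (limma adjusted p = 6.04e-06 for the signals as read). It was at least 21.0-fold higher on day 7 than on day 1 (limma adjusted p = 1.88e-05 for the signals as read). The size as read depended on the background correction: with normexp the log2 differences were -1.64 (limma adjusted p = 3.60e-04) and 1.86 (limma adjusted p = 5.86e-04), in place of -5.14 and 5.58. All these p-values use day 1 signals that were not well above background, so they test no measured day 1 level. Within the 3 scans, which held the same joined samples and are no independent repeats, the measured step from day 1 to day 7 was 5.56, 5.21 and 5.98.

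On day 7 against sham APOE was not called. The difference was 0.44 on the log2 scale (95% confidence interval -0.29 to 1.17, limma adjusted p = 0.253). It was 0.86 against sham samples 1 and 2 alone and 0.02 against samples 3 and 4 alone.

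Other genes of lipid handling were read through lists of receptors, storage, efflux, and sterol synthesis with its regulators. Only 14 of the 91 listed genes could be followed, each by its brightest probe: 4 of 18 uptake genes, 0 of 25 storage genes, 6 of 21 efflux genes and 4 of 27 synthesis and control genes. On day 1 8 of the 14 were called against sham, 1 higher and 7 lower, where 51.1% of the 1995 named genes were called (25.5% higher, 25.6% lower). Their median log2 fold change was -2.32, against 0.12 over all probes. On day 7 5 were called, 1 higher and 4 lower (named genes, 35.4% in all, 18.7% higher and 16.6% lower), with a median of -0.45 against 0.04. Day 7 against day 1 called 3 higher and 1 lower (named genes, 41.3% in all, 20.5% higher and 20.8% lower), with a median of 0.22 against -0.03.

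Among the uptake genes, OLR1 rose in the grafts. OLR1 is LOX-1, a receptor of oxidized LDL. Its level was 7.76 ± 0.22 (SD, n = 4) in sham, 11.49 ± 0.09 (SD, n = 2) on day 1 and 10.60 ± 0.04 (SD, n = 2) on day 7. The log2 fold changes were 3.73 (SE 0.15, limma adjusted p = 1.12e-06) and 2.84 (SE 0.15, limma adjusted p = 7.17e-06). SCARB2, a lysosomal membrane protein of the same family as SCARB1, fell by 3.18 on day 1 (limma adjusted p = 1.46e-06) and then rose by 2.54 to day 7 (limma adjusted p = 1.81e-05). VLDLR, a receptor of triglyceride-rich lipoproteins, was called lower on day 1 (-2.39) and on day 7 (-1.39; limma adjusted p = 2.61e-04 and 0.00576). LPL, lipoprotein lipase, was 10.03 and 10.13 in sham samples 1 and 2 and 16.92 and 16.88 in samples 3 and 4, and its differences from sham (-2.40 and -4.48) were not called (limma adjusted p = 0.361 and 0.124).

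No efflux gene was called higher against sham. APOD, an apolipoprotein of HDL, had the largest fall, with log2 fold changes of -7.22 on day 1 and -6.24 on day 7 (limma adjusted p = 7.89e-08 and 1.88e-07). LCAT, which esterifies the cholesterol of HDL, was called lower at both times. It was well above background on 3 of the 6 day 1 arrays, so its day 1 value of -3.72 is of uncertain size, and its day 7 value was -1.32. For CYP27A1, a mitochondrial sterol hydroxylase, the log2 fold changes were -2.48 and -1.98. PLTP, the phospholipid transfer protein, fell by 3.57 on day 1 and rose by 3.30 from day 1 to day 7 (limma adjusted p = 5.11e-07 and 4.07e-06), and its day 7 difference from sham, -0.27, was not called. PLTP thus had its lowest group mean on day 1, as did SCARB1, SCARB2, VLDLR, APOD, LCAT, CYP27A1 and PPARG. So did APOE, whose day 1 signals are not measured levels. Apart from APOE, only PLTP, SCARB2 and LCAT of these were called higher on day 7 than on day 1. The other pathway genes that could be followed had their lowest group mean in sham or on day 7. The share of all probes with their lowest mean on day 1 was not counted. NPC1, which carries cholesterol out of the lysosome, differed from sham by 0.23 and 0.16 and was not called at either time (limma adjusted p = 0.204 and 0.392).

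Of the regulators, PPARG, a nuclear receptor of fat storage that is also on the adipocyte marker list, was called lower on day 1 (-2.26, SE 0.71, limma adjusted p = 0.0233). On day 7 its difference was -1.56 and not called (limma adjusted p = 0.0979). Its sham samples read 10.41 and 10.38 in samples 1 and 2 and 12.53 and 12.57 in samples 3 and 4, the same split as in SCARB1. NR1H3, the liver X receptor alpha, was 0.76 and 0.70 above sham, under the fold threshold (limma adjusted p = 0.0210 and 0.0369). PPARD, a related nuclear receptor, was called lower on day 7 than on day 1 (-1.1, limma adjusted p = 0.0459).

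**Figure D3:**
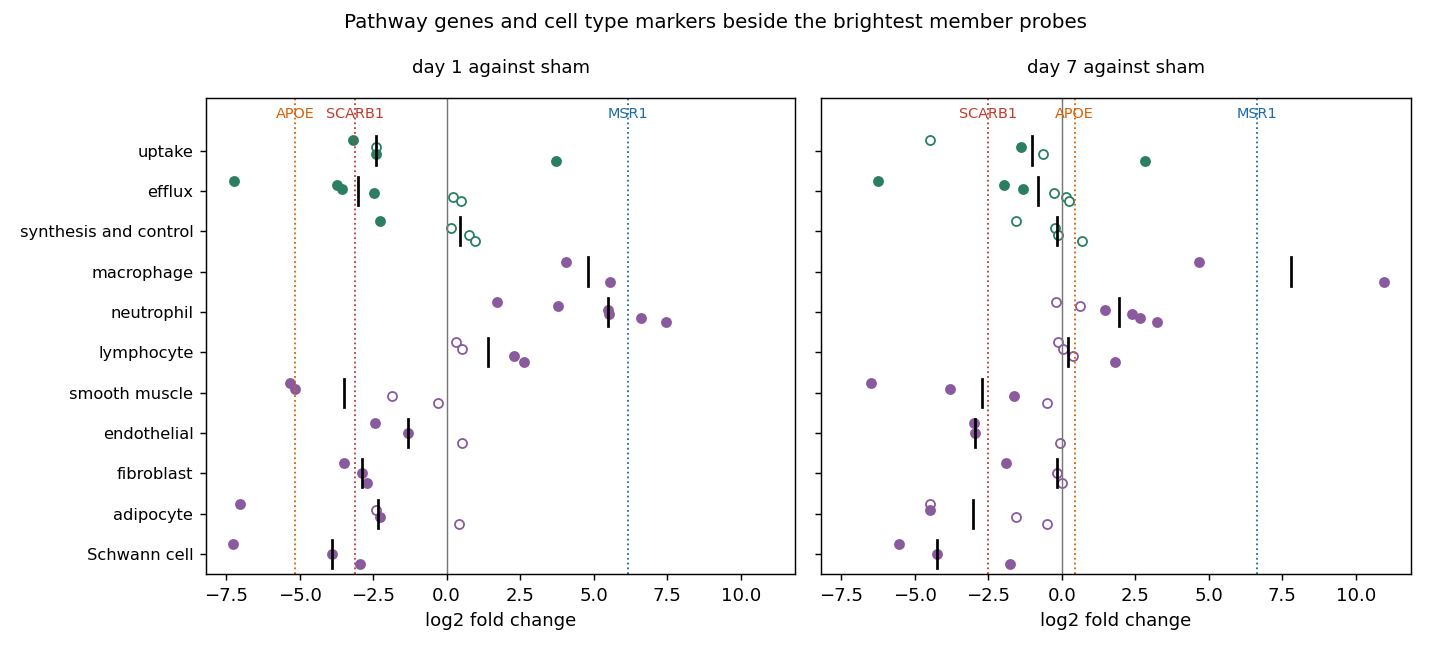
Log2 fold change against sham (horizontal axis) on day 1 (left) and day 7 (right) of the genes of each pathway list (green) and cell type marker list (purple). Each point is a gene by its brightest probe, filled where called, and black bars are list medians. Dotted lines mark the brightest probe of APOE, MSR1 and SCARB1. The macrophage, neutrophil and lymphocyte medians lie on the MSR1 side of 0 in both panels.

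The macrophage label could be checked with 2 of 19 markers only, since the others, CD68 and CSF1R among them, had no named probe that could be followed. CD14, the lipopolysaccharide co-receptor of monocytes, was 5.56 higher than sham on day 1 and 4.67 higher on day 7 on the log2 scale (limma adjusted p = 1.10e-05 and 4.74e-05). MMP12, the macrophage elastase, was 4.06 and 10.95 higher (limma adjusted p = 0.00127 and 1.47e-05). From day 1 to day 7 MMP12 rose by 6.89, while CD14 differed by -0.89 and was not called (limma adjusted p = 2.77e-04 and 0.113). The mean centred level of both ran from -3.97 to -2.36 in sham, from 1.63 to 1.68 on day 1 and from 4.58 to 4.72 on day 7, the same order as MSR1. Its rise from day 1 to day 7 came from MMP12 alone, and the brighter MSR1 probe was not called in that step. Against sham SCARB1 went the opposite way to these 2 markers, while within sham it was higher in samples 3 and 4 as they were. APOE was lowest on day 1, when CD14 had its highest group mean, while MMP12 had its highest on day 7.

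Markers of other cells moved as well. All 6 measured neutrophil markers (of 12) were called higher on day 1 and all 6 fell from day 1 to day 7, with median log2 fold changes of 5.50 and -3.01. Of all named genes, 25.5% were called higher on day 1 and 20.8% lower on day 7 than on day 1. All 3 measured fibroblast markers (of 7) were called lower on day 1 (median -2.87), and 1 of the 3 was on day 7 (median -0.16), where 25.6% and 16.6% of all named genes were called lower. Of 3 measured endothelial markers (of 11) 2 were called lower than sham at both times, KDR among them, which no graft array measured well above background, while SELE, or E-selectin, was 0.52 above sham on day 1 and not called. Of 4 smooth muscle markers 2 were called lower on day 1 and 3 on day 7 (medians -3.50 and -2.71), with CALD1 and DES not called on day 1 and ACTA2 not called on day 7. All 3 Schwann cell markers were called lower at both times (medians -3.91 and -4.25). Of 4 lymphocyte markers (of 12) 2 were called higher on day 1 and 1 on day 7 (medians 1.40 and 0.21). The shares of all named genes called higher were 25.5% and 18.7%. The part of these cells in the member results was not tested.

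**Figure D4:**
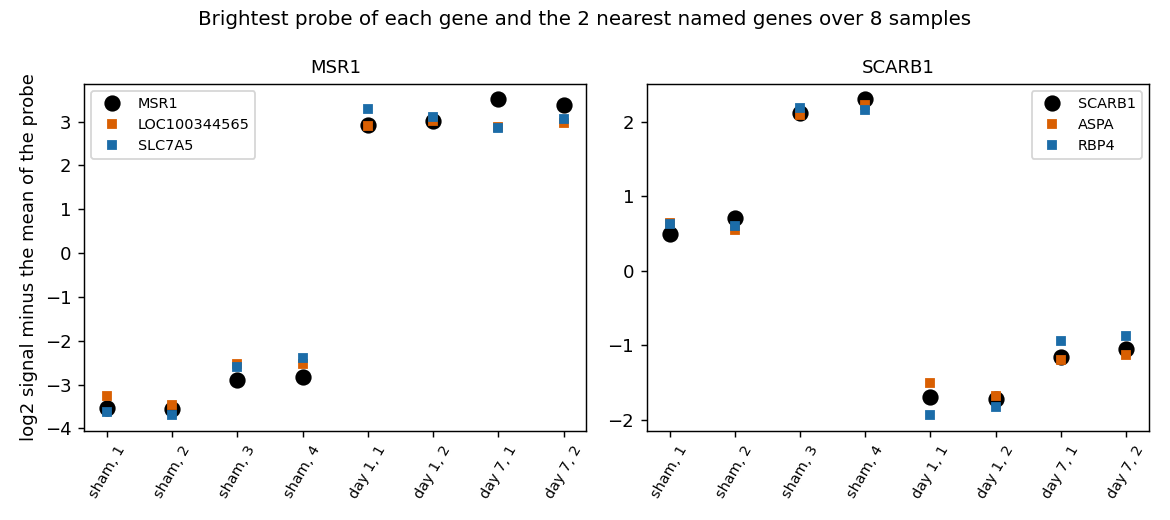
Log2 signal minus the mean of the probe over the 8 samples (vertical axis) for the brightest probe of MSR1 and SCARB1 (black circles) and the 2 named genes nearest to each (coloured squares), by sample (horizontal axis). The SCARB1 panel shows all 3 genes higher in sham samples 3 and 4 than in samples 1 and 2.

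Of 1963 named genes, those with a profile most like MSR1 and SCARB1 were found by the root mean square difference of centred log2 signals over the 8 samples. The difference is not scaled to the size of the change, so its values cannot be compared between MSR1 and SCARB1. SCARB1 was nearest to ASPA, aspartoacylase (0.11), and RBP4, the retinol carrier of plasma (0.16). The log2 fold changes of ASPA against sham were -2.96 on day 1 and -2.54 on day 7. MSR1 was nearest to LOC100344565 (0.33), SLC7A5, a carrier of large neutral amino acids (0.35), and IL1RN, the interleukin-1 receptor antagonist (0.40). For APOE no likeness is given, since its day 1 signals are not measured levels.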

How the data were processed

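The deposited scanner files give, per spot, a background-subtracted signal intensity (gProcessedSignal) with quality calls, made by the authors with Agilent Feature Extraction (11.0.1.1 per the file headers, 9.1 in the submitters' processing notes). The authors also deposited log2 values, quantile-normalized and filtered in GeneSpring, for 33670 probes (array medians 8.49 to 8.51), which served as an alternative.

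Control spots and outlier spots (1.46% of spots on at least 1 array) were left out, quantile normalization was applied to log2 signals, and replicate spots were averaged per probe. A probe was kept (35760 of 43603) if any group had it well above background on all its arrays. Probes were named by RefSeq accession through the RefSeq genes of assembly mOryCun1.1 (3368) and otherwise by a gene identifier in the study's supplement (2810), which gave 2121 genes. That assembly served for names only, since the files use oryCun2. Members were named by accession alone.

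Arrays of a group were joined where the variance of their difference was at most 1 times that of spots of one probe. The log2 differences had an SD of 0.05 to 0.09 within a joined set, 0.18 to 0.20 between the 2 sets of a graft group, 0.19 to 0.23 within the sham pairs and 0.70 to 0.71 between them, where spots gave 0.18. One limma model (limma 3.58.1, R 4.3.3) over 3 groups gave all tests, with Benjamini-Hochberg adjustment over all kept probes. The data.table package was used too, and the scripts were tested on simulated data. Figures used Python with matplotlib and pandas.

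Per array, 32794 to 36268 probes exceeded background clearly, and the 75th percentile signal was 863 to 1023 units on day 1, 2488 to 2831 on day 7 and 1329 to 2026 in sham. The number of samples limits the precision. Named genes were every member probe, the called gene of each pathway list with the largest rise and the largest fall per comparison, the highest and lowest macrophage marker, and the 3 nearest profiles per member, of which 1 is not reported here and those of APOE were dropped. LPL, LCAT, CYP27A1, NPC1, NR1H3, ADIPOQ, LEP, KDR, SELE, CALD1, DES, ACTA2 and the PPARG day 7 value were named after their values were seen. Members and lists were chosen with earlier results of these data known.

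Alternatives were 75th percentile scaling, normexp background correction (offset 50), other filters, the authors' log2 values, 16 arrays as separate samples, replicate and scan blocks, averaged sham pairs, only the groups compared, one probe per gene, and each sample left out.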

Additional observations from a re-analysis of the deposited data

Results flagged for a closer look

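In 2 probes the difference from sham was not the same on day 7 as on day 1 by the direct limma test of day 7 against day 1. For APOE the measured difference between the times was 5.58 on the log2 scale (limma adjusted p = 1.88e-05), higher in 2 of 2 day 7 samples, with day 1 not well above background. For MSR1 probe A_04_P075392 it was 1.40 (limma adjusted p = 0.0102), also higher in 2 of 2 samples. Of all probes, 43.9% read higher in both day 7 samples than in both day 1 samples. No member had a sham sample standing apart from the other 3, and groups of 2 samples could not be examined for this.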

How the results depend on the processing

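Of 613 values recomputed under 24 alternatives, 0 reversed their direction. These values include counts of calls, which have no direction. They also include fits that return the same differences, such as that with 16 arrays as separate samples. Under 75th percentile scaling MSR1 probe A_04_P001231 was called in day 7 against day 1 (1.21). In that comparison the number of member probes called was 1 rather than 2 when probes had to be well above background on all 16 arrays, which removes APOE, and 1 to 2 when single samples were left out. Pathway genes called there were 2 with normexp and 6 under 75th percentile scaling, rather than 4, and on day 1 against sham 10 rather than 8 under that scaling. Within scans 2 and 3, which held the same joined samples, the APOE step was 5.21 and 5.98, on arrays where day 1 is below background. Other member calls lost were MSR1 A_04_P075392 (1.36 and 1.1) and SCARB1 A_04_P003330 on day 7 (-2.40), each on leaving out 1 graft sample, where the lone sample left is assumed to vary like the other groups. The causes were not tested.

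Over all probes normexp called 10430, 6901 and 7296 (day 1 against sham, day 7 against sham, day 7 against day 1) in place of 17815, 11757 and 14280. The share of calls that were higher was 50.6%, 53.2% and 52.8% and became 64.0%, 51.0% and 34.1% under 75th percentile scaling, which moved the median of all probes from 0.12, 0.04 and -0.03 to 0.47, -0.01 and -0.35. The direction of every member call was the same under both scalings.

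Replicate numbers did not pair the arrays (correlations of deviations from -0.02 to 0.05). With the replicate number as a block over 16 arrays, 8, 7 and 2 member probes and 9, 7 and 4 pathway genes were called, against 8, 7 and 2 and 8, 5 and 4, and no member call changed. SCARB1 A_04_P003327 was -3.10 and -2.51 against sham in that fit. With sham arrays averaged in pairs, 8, 7 and 2 member probes were called. The limma adjusted p of SCARB1 A_04_P003327 against sham was then 0.00375 on day 1 and 0.0117 on day 7. Precision is limited by 2 samples per graft group, by the separate scan of sham and by signals near background, where APOE on day 1 has only an upper bound.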
